A study of Mus musculus with 3 samples.

Results

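The 10 genes described here encode proteins of the secondary (specific) and tertiary (gelatinase) granules of neutrophils and proteins made alongside them. They are Ngp, Ltf, Camp, Lcn2, Cd177, Mmp8, Mmp9, Lyz2, Pglyrp1 and Retnlg, taken by mouse symbol from a raw count table of 19723 genes. All 10 were in the table and passed the filter of 1 CPM (counts per 1000000 scaled reads) in at least 1 library, as did 13019 genes in all.

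RNA was sequenced from 3 sorted cell pools, all from female BALB/c animals 6 to 8 weeks old. Myeloid-derived suppressor cells (MDSCs, immature myeloid cells that restrain T cells) were pooled from tumours, 20 from alisertib-treated mice and 20 from control mice. Alisertib inhibits the mitotic kinase Aurora A. The third pool held neutrophils of 5 wild-type mice, taken from bone marrow. With 1 library in each group, no spread between animals is known, no test between conditions was possible, and every difference is between these libraries. Control mice are labelled untreated in one place and control treated in another, and no tumour line, dose or sort marker is given.

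A developing neutrophil fills its granules in stages. Primary granules are loaded first, at the promyelocyte stage, secondary granules follow in myelocytes and metamyelocytes, and tertiary granules are loaded last. Each protein goes to the granule that is forming when its gene is active, and the transcription factor C/EBP epsilon is required for the secondary granule genes. The stored proteins bind iron or bacterial cell walls, kill microbes or cut the extracellular matrix once the granules are released.

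The library totals were 19373087 counts with alisertib, 21959748 in control and 21987097 in bone marrow, with 17303 to 17622 genes detected. All 6 neutrophil markers checked (S100a8, S100a9, Csf3r, Ly6g, Cxcr2 and the member Retnlg) were detected in each library. They summed to 13040 CPM (scaled by TMM factors, which correct library sizes for differences in make-up) with alisertib, 30633 in control and 54983 in bone marrow. S100a8 (3341, 8725 and 15223 CPM in the same order) and S100a9 (7363, 17726 and 30389) made up most of each sum. Csf3r stood at 1725, 2226 and 2368 CPM, Ly6g at 60.0, 82.2 and 1100, and Cxcr2 at 255, 405 and 946. B cell markers summed to 36.6, 5.02 and 182 CPM in the same order, and all 5 were higher with alisertib than in control. The 9 monocyte and macrophage markers summed to 750.2, 608 and 558 CPM, 5 of them higher with alisertib than in control, and none of them was at 0. The 7 T and NK cell markers summed to 24.7, 13.1 and 143 CPM, of which Cd3d alone made up 6.21, 8.70 and 136 CPM. Of the 7, 4 were higher with alisertib than in control. These included Cd3e (98 against 17 counts), Cd2 (148 against 22) and Trbc1 (92 against 10), while Cd3d, Nkg7 and Ncr1 were lower. Markers of dividing cells summed to 62.5, 56.7 and 498 CPM.

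On GRCm38 (GENCODE M21), Camp lies at chr9:109847379-109849617 on the minus strand, Ngp at chr9:110419747-110423012 and Ltf at chr9:111019271-111042767, both on the plus strand. Mmp8 is on the same chromosome at chr9:7558456-7568485, Mmp9 at chr2:164940780-164955850 and Retnlg at chr16:48872621-48874496, all on the plus strand. Lcn2 is at chr2:32384633-32388252, Lyz2 at chr10:117277331-117282321 and Cd177 at chr7:24743983-24760311, all on the minus strand, and Pglyrp1 at chr7:18871331-18890459 on the plus strand. Counts cover whole genes, so no value belongs to a single exon.

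Of the 10 members, 9 matched RefSeq's promoter windows on GRCm38.p6. The stretches of 4 are printed because these genes were lower in each of the 3 comparisons below and hold a C/EBP-type match, in capitals, upstream of both annotated starts. Lcn2 also was lower in all 3 and holds a match, but its window has no stretch upstream of both starts. Camp, Cd177 and Pglyrp1 were lower in all 3 too, but hold no such match in the 250 bases before the RefSeq start. The pattern was TTNNGCAA on both strands. The starts are those of RefSeq and GENCODE, and each stretch is written 5′ to 3′ on the gene's strand. Ngp is at chr9:110419558-110419746, Ltf at chr9:111019042-111019270, Mmp8 at chr9:7558179-7558428 and Retnlg at chr16:48872358-48872607, all on the plus strand.
Ngp: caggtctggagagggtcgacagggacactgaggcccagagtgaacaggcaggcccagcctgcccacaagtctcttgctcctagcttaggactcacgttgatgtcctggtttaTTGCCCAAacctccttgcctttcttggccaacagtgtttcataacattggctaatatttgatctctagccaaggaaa
Ltf: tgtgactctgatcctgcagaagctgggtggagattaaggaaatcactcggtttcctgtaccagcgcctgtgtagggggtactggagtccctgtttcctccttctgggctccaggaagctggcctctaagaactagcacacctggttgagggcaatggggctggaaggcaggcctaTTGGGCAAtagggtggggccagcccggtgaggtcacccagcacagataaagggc
Mmp8: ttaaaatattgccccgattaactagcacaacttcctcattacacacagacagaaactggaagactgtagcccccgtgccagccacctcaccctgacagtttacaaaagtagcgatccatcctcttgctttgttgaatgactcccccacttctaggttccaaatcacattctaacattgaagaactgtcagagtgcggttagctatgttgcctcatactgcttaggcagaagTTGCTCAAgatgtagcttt
Retnlg: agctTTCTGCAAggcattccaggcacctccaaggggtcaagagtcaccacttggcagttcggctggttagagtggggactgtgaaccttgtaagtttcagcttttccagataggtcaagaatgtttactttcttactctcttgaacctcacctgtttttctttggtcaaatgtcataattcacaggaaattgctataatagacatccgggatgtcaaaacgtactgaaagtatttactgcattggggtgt
In the 250 bases before the RefSeq start, the C/EBP-type pattern was found in 5 of 9 members (Ngp, Ltf, Lcn2, Mmp8 and Retnlg) and in 9.56% of 32851 windows of that length. Ngp held a second match 11 to 4 bases before the RefSeq start, downstream of the GENCODE start and so not printed. The sequence GAGGAA, a core of sites for PU.1 and other ETS factors, was found in 5 of 9 members on either strand (Ltf, Lcn2, Cd177, Mmp8 and Pglyrp1) and in 23.3% of windows. TATAAA was found in Cd177 alone among the members, against 12.4% of windows, and the NF-kappaB consensus in Pglyrp1 alone, against 5.0%. No match of one pattern overlapped a match of another in these 9 windows. These are matches of letters, and binding was not measured.

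Levels are given first per gene length, as the authors' FPKM, a fragment count divided by gene length and library depth. In bone marrow all 10 members were among the 100 most highly expressed of the 13019 genes. Ngp stood at 17299 FPKM, rank 3, Lyz2 at 10297 (rank 4), Retnlg at 8063 (rank 5), Camp at 6015 (rank 6) and Ltf at 5081 (rank 7). Lcn2 followed at 2752 FPKM, Mmp8 at 1499, Mmp9 at 1364, Cd177 at 1234 and Pglyrp1 at 742. The order in the marrow thus ran from secondary granule cargo and lysozyme down to the surface protein CD177 and the peptidoglycan binder, over a 23.3-fold range.

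In control tumour MDSCs 3 members were among the 100 most highly expressed genes, and all 10 among the first 1000. Retnlg was highest at 2352 FPKM (rank 16), then Ngp at 1203 (rank 38) and Lcn2 at 638 (rank 84). Lyz2 stood at 419 FPKM, Mmp9 at 313, Cd177 at 206, Mmp8 at 179, Ltf at 161, Pglyrp1 at 129 and Camp at 69.9. Camp, rank 6 in bone marrow, was thus the lowest member in the tumour, at rank 840.

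With alisertib, 1 member was among the first 100 genes and 7 among the first 1000. Retnlg was again highest at 473 FPKM (rank 88), followed by Mmp9 at 387 (rank 114), Lyz2 at 322 (rank 139), Lcn2 at 234 (rank 220) and Ngp at 148 (rank 336). Mmp8 stood at 58.9 FPKM, Cd177 at 57.6, Pglyrp1 at 36.1, Ltf at 35.4 and Camp at 14.9 (rank 2607). Mmp9, which had 7 members above it in bone marrow and 4 in control, thus had only Retnlg above it with alisertib. Whether neighbours in these orders differ beyond the spread between animals is not known.

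**Figure D1:**
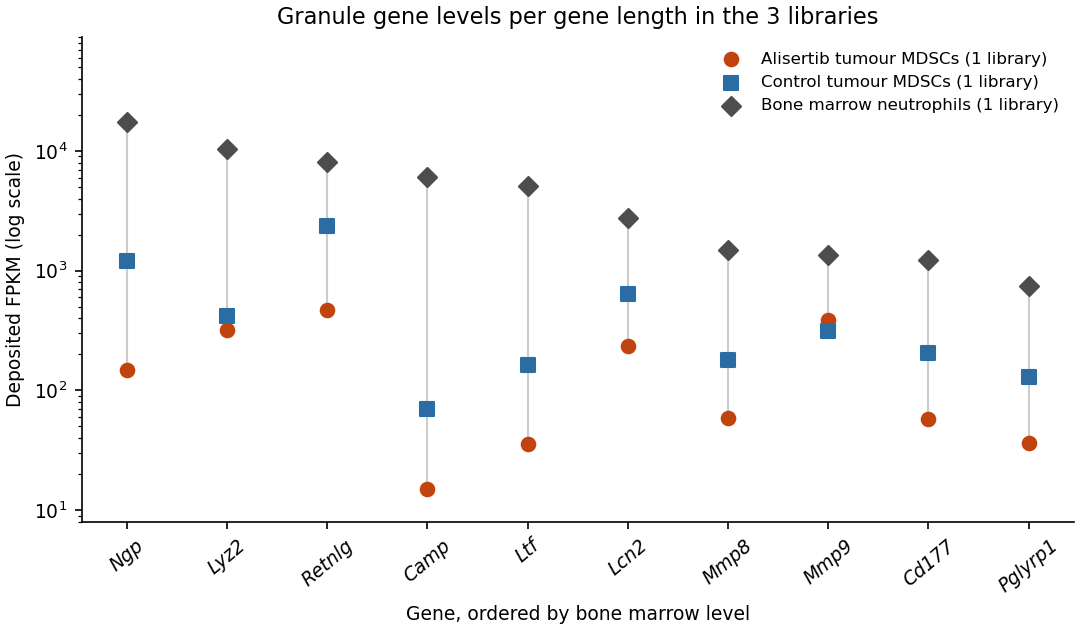
Deposited FPKM (log axis) of the 10 granule genes in each of the 3 libraries, ordered by the bone marrow level; each point is 1 library and grey lines join the values of a gene. All 10 were highest in bone marrow, and Mmp9 was the only one higher with alisertib (387) than in control (313).

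Alisertib and control MDSCs were set against each other first, for the effect of treatment on cells in the tumour. A gene was called when its 95% counting interval lay at least 2-fold from 1. By this rule 8 of the 10 members were lower with alisertib and none higher, against 1.18% of all 13019 genes called lower and 1.8% called higher (2.98% in either direction). The median log2 ratio of the members was -1.83, against 0.00 for all genes. The members were chosen with earlier results of these data known. Intervals cover counting error only, and in these bulk samples fewer neutrophils and less granule RNA per cell cannot be told apart.

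Among the cargo of secondary granules, Ngp (neutrophilic granule protein, a cathelicidin-related protein) stood at 186 CPM with alisertib, 1509 in control and 21372 in bone marrow. It was 8.13-fold lower with alisertib than in control (7.86 to 8.41), its ratio ranking 17 from the lowest of the 13019. Ltf, which encodes the iron-binding protein lactoferrin, stood at 126, 571 and 17724 CPM and was 4.54-fold lower (4.36 to 4.75). Both fell far more than the typical gene, and Ngp fell more than any other member.

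Camp, the precursor of the antimicrobial peptide CRAMP, stood at 11.7, 54.4 and 4609 CPM, from 242, 1062 and 106334 counts. It was 4.66-fold lower with alisertib (4.05 to 5.38), an interval that overlapped those of Ltf and Retnlg. Lcn2, lipocalin 2, which binds bacterial iron carriers, stood at 632, 1718 and 7297 CPM and was 2.72-fold lower (2.66 to 2.78). Lcn2 was the least reduced of the 8 genes called.

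Retnlg, a secreted protein of the resistin family made by granulocytes, stood at 296, 1468 and 4956 CPM and was 4.96-fold lower with alisertib (4.83 to 5.10). Pglyrp1, which binds bacterial peptidoglycan, stood at 68.3, 243 and 1378 CPM and was 3.56-fold lower (3.35 to 3.78). Cd177, a membrane-anchored glycoprotein of secondary granules and the neutrophil surface, stood at 168, 602 and 3544 CPM and was 3.57-fold lower (3.44 to 3.71). The intervals of Cd177 and Pglyrp1 overlapped, so these neighbours in the order did not differ beyond counting error.

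The 2 matrix proteases differed in direction. Mmp8, the neutrophil collagenase of secondary granules, stood at 149 CPM with alisertib, 451 in control and 3717 in bone marrow, and was 3.03-fold lower (2.91 to 3.16). Mmp9, gelatinase B, the defining enzyme of tertiary granules, stood at 1411 CPM with alisertib, 1137 in control and 4880.4 in bone marrow. Its ratio of alisertib to control was 1.24 (1.22 to 1.26), short of the 2-fold bound. That ratio was above 1 under each other scaling tried, at 1.20 with DESeq2 size factors, 1.44 without the 100 most abundant genes, 1.49 with total counts and 1.81 with scaling to neutrophil surface genes.

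Lyz2, the lysozyme of myeloid cells, which macrophages express as well, stood at 419.7, 545 and 13179.8 CPM, with an alisertib to control ratio of 0.771 (0.749 to 0.793), not called. The ratio was 1.13 when libraries were scaled to neutrophil surface genes, so its direction depended on the scaling. Its near copy Lyz1 held 7, 6 and 142 counts, and reads shared between the copies make both uncertain. Lyz2 and Mmp9 were thus the members outside the common decrease, and the summed level of the 9 monocyte and macrophage markers was 750.2 CPM in the same library against 608 in control. Apoe made up most of that difference, at 459 against 338 CPM, while 4 of the 9 were lower with alisertib, among them Csf1r at 172.8 against 173.7 CPM and Ccr2 at 5.44 against 8.65. The part of these cells in the result was not tested.

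**Figure D2:**
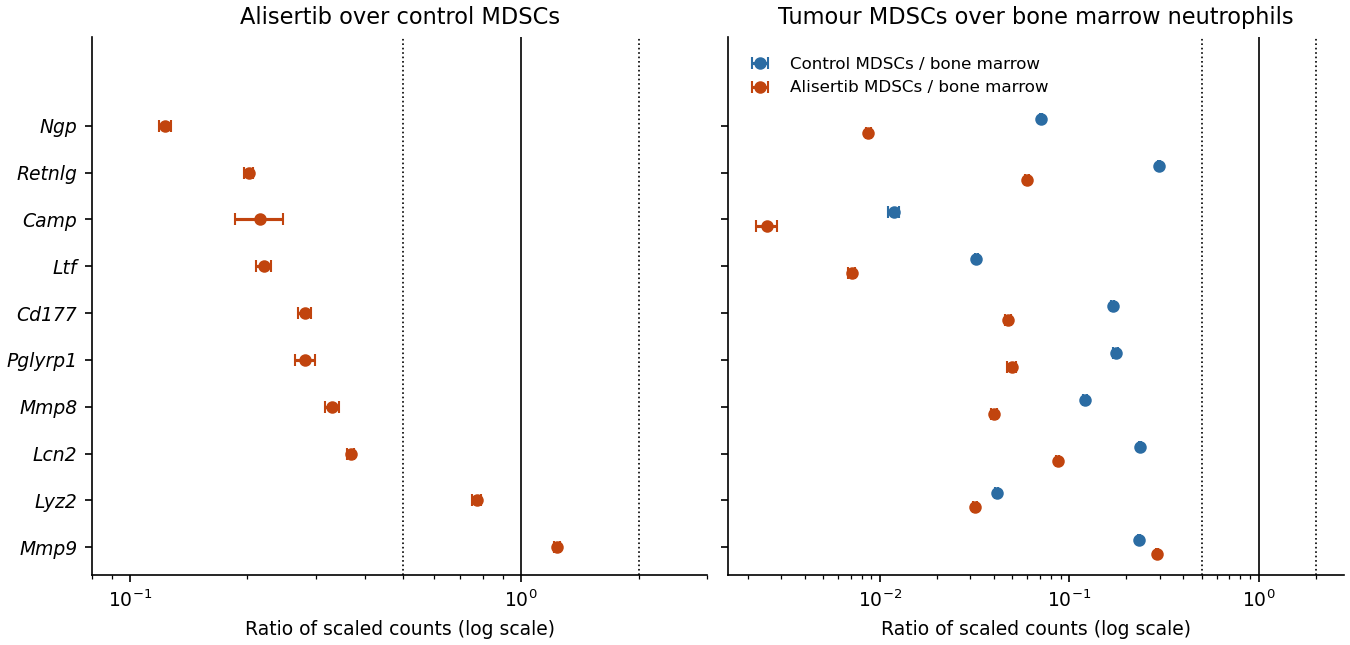
Ratio of scaled counts (log axis) for each granule gene, alisertib over control MDSCs on the left, and each tumour library over bone marrow on the right; bars are 95% exact counting intervals, solid lines mark 1 and dotted lines a 2-fold difference. On the left 8 genes lie below the 2-fold line, with Lyz2 (0.771) and Mmp9 (1.24) between the lines; on the right all 10 lie below it.

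As neutrophil markers were lower with alisertib too, the members were also scaled to 6 neutrophil surface genes (Csf3r, Ly6g, Itgam, Itgb2, Cxcr2 and Fcgr3). Of these, Itgam and Itgb2 are also on the list of other granule genes below. The 6 did not move together between control MDSCs and bone marrow. In control Ly6g was 13.4-fold lower, Cxcr2 2.34-fold lower and Fcgr3 2.98-fold higher, with Csf3r, Itgam and Itgb2 not called. The geometric mean of the 6 genes was 382 CPM with alisertib, 559 in control and 952 in bone marrow, 1.46-fold lower with alisertib than in control. Relative to them 6 members were still called lower (Ngp, Ltf, Camp, Cd177, Pglyrp1 and Retnlg) and the median log2 ratio was -1.28, while that of all genes moved to 0.55. Over all 13019 genes this scaling called 31 lower and 928 higher. Mmp8, at 2.07-fold lower, and Lcn2, at 1.86-fold lower, were then no longer called. The calprotectin genes S100a8 and S100a9, abundant cytosolic proteins of neutrophils, were called lower with alisertib in the main analysis, at 2.61-fold (2.59 to 2.63) and 2.41-fold (2.39 to 2.42), while the receptor genes Csf3r and Il1r2 stood at log2 ratios of -0.37 and -0.28, not called.

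The make-up of the granule transcripts differed between the libraries. The 10 members took up 0.371% of all counts with alisertib (exact 95% interval 0.369 to 0.374), 0.738% in control (0.735 to 0.742) and 8.67% in bone marrow (8.66 to 8.68). Mmp9 made up 40.7% of the members' counts with alisertib, 13.7% in control and 5.90% in bone marrow. Ngp made up 5.36%, 18.2% and 25.9%, and Ltf 3.63%, 6.88% and 21.4%. By counts, which grow with gene length, a large share thus lay on Mmp9 in the alisertib library and on Ngp and Ltf in bone marrow. Per gene length, Retnlg stood above Mmp9 with alisertib (473 against 387 FPKM). In bone marrow Lyz2, Retnlg and Camp stood above Ltf (10297, 8063 and 6015 against 5081 FPKM), and Ngp was highest.

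Lcn2 held 18.2% of the members' counts with alisertib and 20.7% in control, against 8.83% in bone marrow, so this gene kept a similar place in both tumour libraries. Retnlg held 8.54%, 17.7% and 6.00%, and Lyz2 12.1%, 6.56% and 15.9%. Camp held 5.58% in bone marrow, 0.655% in control and 0.336% with alisertib. Per gene length, Ngp stood at 12.7 times the level of Mmp9 in bone marrow, 3.84 times in control and 0.381 times with alisertib. The order of these 2 genes was thus reversed between the tumour libraries.

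**Figure D3:**
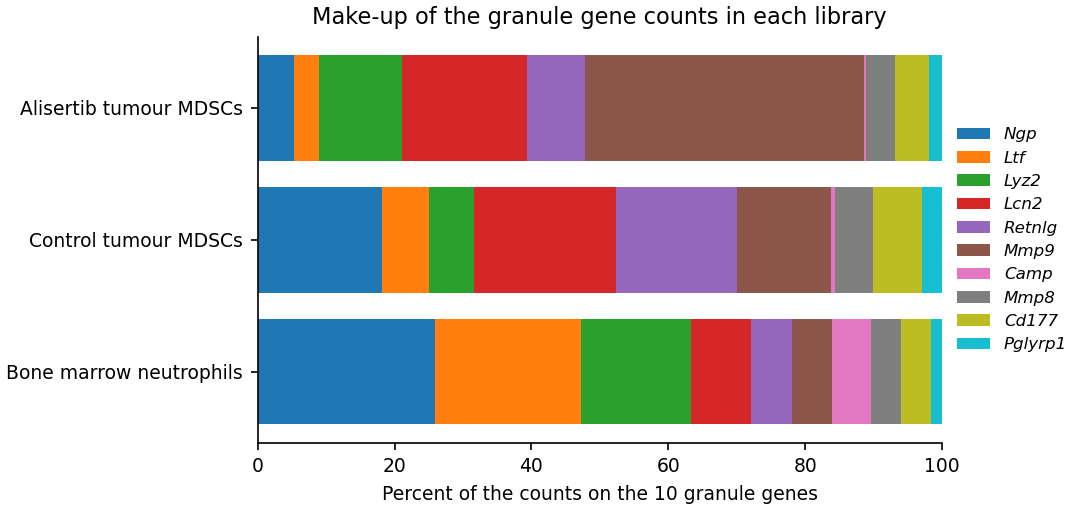
Share of each granule gene in the summed counts of the 10 genes (percent, horizontal axis) in each library, 1 bar per library. Mmp9 makes up 40.7% with alisertib and 13.7% in control, while Ngp and Ltf make up 25.9% and 21.4% in bone marrow.

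Control MDSCs were next set against the marrow neutrophils, to place the tumour cells beside neutrophils from wild-type mice. Tumour and marrow pools differ at once in tissue, mice and labelled cell type. These cannot be told apart in either comparison with bone marrow. Markers of dividing cells also differed, at 56.7 CPM in control and 498 in bone marrow. All 10 members were lower in control MDSCs, against 22.9% of all genes called lower and 18.3% called higher (41.3% in either direction), with a median log2 ratio of -2.80 against -0.14. Camp differed most, at 84.7-fold lower (79.8 to 90.1), followed by Ltf at 31.0-fold (30.4 to 31.6) and Lyz2 at 24.2-fold (23.7 to 24.7). Ngp was 14.2-fold lower (14.0 to 14.3) and Mmp8 8.24-fold (8.06 to 8.43). These 5 were separated from one another by intervals that did not overlap.

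The other members differed less. Cd177 was 5.89-fold lower (5.78 to 6.00) and Pglyrp1 5.67-fold (5.50 to 5.85), with overlapping intervals, and so were Mmp9 at 4.29-fold (4.23 to 4.36) and Lcn2 at 4.25-fold (4.197 to 4.297). Retnlg differed least, at 3.38-fold lower (3.33 to 3.42). Relative to the neutrophil surface genes, Retnlg was 1.98-fold lower and not called, and the other 9 members were still called, from 2.49-fold (Lcn2) to 49.7-fold (Camp) lower. Over all 13019 genes this scaling called 1588 lower and 4285 higher, with a median log2 ratio of 0.63.

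The comparison of alisertib MDSCs with bone marrow neutrophils shares the marrow library with the previous one and the alisertib library with the first. All 10 members were lower again, against 22.3% of all genes called lower and 18.7% called higher (41.0% in either direction), with a median log2 ratio of -4.52 against -0.09. Camp was 395-fold lower (349 to 450.4), its ratio ranking 7 from the lowest of the 13019, Ltf 141-fold (136 to 147) and Ngp 115-fold (111 to 119). Lyz2 was 31.4-fold lower (30.7 to 32.1) and Mmp8 25.0-fold (24.1 to 25.9). Camp, Ltf and Ngp thus had the largest differences among the members. Relative to the neutrophil surface genes they were 158-fold (Camp), 56.6-fold (Ltf) and 46.2-fold (Ngp) lower, in the same order.

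Cd177 was 21.03-fold lower (20.3 to 21.8), Pglyrp1 20.2-fold (19.1 to 21.3), Retnlg 16.7-fold (16.3 to 17.2) and Lcn2 11.5-fold (11.3 to 11.8). Mmp9 was 3.46-fold lower (3.42 to 3.50), the smallest difference of the 10. Relative to the neutrophil surface genes Mmp9 was 1.39-fold lower and not called, and the 6 members between it and Ngp were 4.63-fold (Lcn2) to 12.6-fold (Lyz2) lower. That scaling called 954 of all 13019 genes lower and 6209 higher, with a median log2 ratio of 1.22. Set side by side, Retnlg was 3.38-fold below bone marrow in control and 16.7-fold with alisertib, whereas Lyz2 was 24.2-fold and 31.4-fold below it.

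Other secondary and tertiary granule genes were taken from a list of 18, of which 17 passed the filter and Ptx3 is not analysed here. Between alisertib and control, 3 of 17 were called lower and none higher, against 1.18% and 1.8% of all genes. The median log2 ratio of the list was -0.57, with all 17 ratios below 1. Chil3, a chitinase-like protein of mouse neutrophils and macrophages, was 3.42-fold lower (3.09 to 3.80), at 23.3 against 79.9 CPM. Itgb2l, a beta integrin-like gene, was 3.15-fold lower (2.44 to 4.13), at 3.85 against 12.2 CPM, and Mmp25, a membrane-bound protease of tertiary granules, 2.15-fold (2.02 to 2.29), at 72.6 against 156 CPM. Adam8, a surface protease of granule membranes, was 1.94-fold lower (1.92 to 1.96), short of the bound.

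Against bone marrow, control MDSCs had 7 of these 17 genes lower and 3 higher, against 22.9% and 18.3% of all genes. Adam8 was among the higher ones, at 2.05-fold (2.03 to 2.08), and Chil3 was 17.5-fold lower (16.7 to 18.5). With alisertib 9 of 17 were lower and 2 higher than in bone marrow, against 22.3% and 18.7% of all genes. This wider list was thus less uniform than the 10 members, though the difference between the lists was not tested. Both were chosen with earlier results of these data known, which may have made the members look more uniform.

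Of 9 primary granule genes 8 passed the filter, and 0 of these were called between the tumour libraries, where 2.98% of all genes were called, so the count says little about a list of this size. Mpo, the peroxidase that defines primary granules, had 29 counts with alisertib, 15 in control and 1198 in bone marrow, and Prtn3, a serine protease that binds CD177, had 98, 81 and 561. Their alisertib to control ratios were 1.79 (0.944 to 3.65) and 1.14 (0.840 to 1.55). The interval of Prtn3 left out a 2-fold difference either way, while that of Mpo, from few counts, reached past 2-fold on the higher side. The lysosomal genes Ctsc and Cd63 on the same list stood at log2 ratios of -0.35 and 0.42. Against bone marrow 6 of 8 primary granule genes were lower in control MDSCs and 1, Ctsc, was higher, against 22.9% and 18.3% of all genes.

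Of 8 transcription factors of granulocyte development, 0 were called between the tumour libraries, a count to be read against the same 2.98% of all genes. Cebpe, which encodes C/EBP epsilon, stood at 5.64 CPM with alisertib, 4.97 in control and 229 in bone marrow, from 117, 97 and 5283 counts. Its alisertib to control ratio was 1.13 (0.860 to 1.501), and it was 45.9-fold lower in control MDSCs than in bone marrow (37.7 to 57.0). Cebpb, a related factor of emergency granulopoiesis, stood at 1506 CPM with alisertib, 2718 in control and 389 in bone marrow, with an alisertib to control ratio of 0.554 (0.547 to 0.562), short of the bound. Cebpd stood at 127, 112 and 489 CPM, Spi1 (PU.1) at 356, 475 and 723, and Klf6 at 2389, 3041 and 1327. Cebpe was near the same low level in both tumour libraries, in which Ngp, Ltf, Camp and Lcn2 differed 2.72- to 8.13-fold. Any part of Cebpe in these differences was not tested.

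Granule packing and release genes had 0 of 9 called between the tumour libraries (2.98% over all genes) and a median log2 ratio of -0.48. Srgn, the proteoglycan core that holds granule proteins, stood at 6469 CPM with alisertib, 8467 in control and 701 in bone marrow. It was thus 12.1-fold higher in control MDSCs than in bone marrow (11.9 to 12.3), whereas all 10 members were lower. Stxbp2, a fusion protein of granule release, had an alisertib to control ratio of 0.558 (0.530 to 0.588), not called. Snap23 and Stx11, also of the fusion machinery, stood at log2 ratios of -0.48 and -0.53. Against bone marrow, control MDSCs had 2 of these 9 genes higher, Srgn and Snap23, and 2 lower, near the shares over all genes (18.3% higher and 22.9% lower).

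Over all genes 1.18% were called lower with alisertib than in control and 1.8% higher. Of 8 genes for partners, receptors and inhibitors of the member proteins, 1 was called lower and none higher. This was Serpinb1a, an inhibitor of neutrophil proteases, 3.26-fold lower (2.68 to 4.005) at 6.41 against 20.9 CPM, with 469 CPM in bone marrow. Trem1, a receptor to which PGLYRP1 binds, stood at 1493 CPM with alisertib, 2243 in control and 853 in bone marrow, 1.502-fold lower with alisertib (1.48 to 1.52) and not called. The inhibitors Slpi and Cst3 stood at log2 ratios of -0.00 and -0.22.

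**Figure D4:**
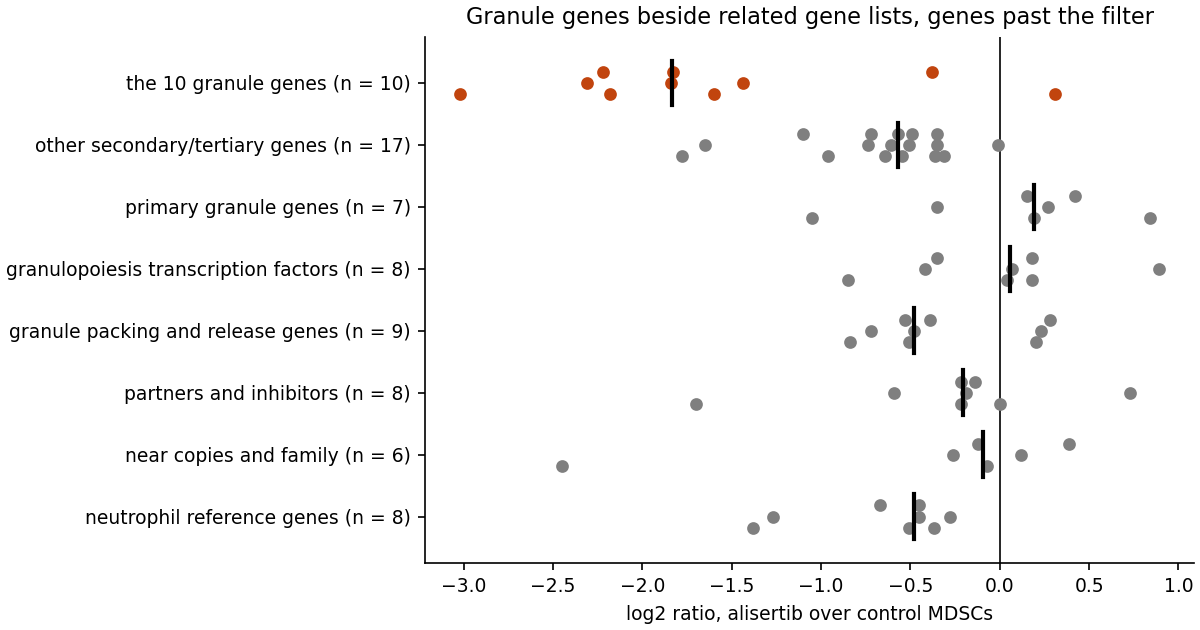
Log2 ratio of alisertib over control MDSCs for the 10 granule genes (orange) and for 7 related lists (grey); each point is a gene past the filter with counts in both libraries, and black bars are medians of the points drawn. The members have a median of -1.83 and the other secondary and tertiary granule genes one of -0.57.

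The genes most like Ngp were ranked by the Euclidean distance over 2 log2 ratios, alisertib over control and control over bone marrow, among 7343 other genes with at least 10 CPM in a library, leaving out those with only a model, clone or small RNA symbol. This measure rests on 3 libraries and is a description. The nearest was Padi4, the enzyme that citrullinates histones, at a distance of 0.778, with 13.9, 76.6 and 746 CPM with alisertib, in control and in bone marrow. Orm1, an acute phase glycoprotein also kept in secondary granules, and Chil3 came after it, at 1.04 and 1.29. Scrg1 and Kiss1r lay between them and Padi4, with 1 count each in the alisertib library.

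Genes near the median member by the same measure were Cnn2 (an actin-binding calponin, distance 0.0560), Abca13 (a lipid transporter), Anxa1 (annexin A1, a resolving protein stored in tertiary granules) and Palm (distance 0.366). Anxa1 stood at 229.6 CPM with alisertib, 674 in control and 5065 in bone marrow. Its log2 ratios were -1.55 for alisertib over control and -2.91 for control over bone marrow, beside -1.83 and -2.80 for the median member.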

How the data were processed

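The authors deposited raw counts per gene and FPKM values for 3 libraries. Per the submitters' processing notes, CASAVA 1.8, STAR 2.5.1b and the builds mm9 and mm10 were involved, with no role or order stated. The counting tool, annotation and strand setting were not given in the sources used here. Per the labels' protocols, RNA was extracted with Trizol and libraries made with the NEBNext Ultra kit.

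Ratios used the counts as deposited, scaled by TMM factors of 1.07148, 0.88952 and 1.0492 (alisertib, control, bone marrow; edgeR 4.0.16, R 4.3.3), over 13019 genes with at least 1 CPM in at least 1 library. Each count had 0.5 added before division. The exact 95% (Clopper-Pearson) interval came from the raw counts, and calls required its bound closest to 1 to be 2-fold or more. Intervals cover counting error only. They treat each count as a separate molecule, so PCR copies, which cannot be told apart without identifiers, would make them too narrow. The 0.5 has little effect on the members, which had at least 242 counts. The deposited FPKM values served to compare levels between genes, as counts grow with gene length, with gene lengths not given in the sources used here. The procedure was tested on simulated data.

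Symbols were matched for 19648 of the 19723 genes, and positions come from GENCODE M21 on GRCm38. No other annotated gene overlapped a member. Promoter sequences are RefSeq's on GRCm38.p6. The genes named were the 10 members, Cebpe, up to 4 genes of each of 7 lists (called genes first, then the most abundant) and the 5 nearest to Ngp and to the median member, passing over Gm, Rik, LOC, Mir and Snor symbols. One gene that this rule names is not reported here. The members and lists were chosen with earlier results of these data known. Alternatives were DESeq2 1.42.0 size factors, total counts, 2 further scalings, other filters, other fold bounds and FPKM with a pseudocount of 1 or 0.1.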

Additional observations from a re-analysis of the deposited data

How the results depend on the processing

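No paired analysis was possible because each group was 1 library. The call counts of the members stayed within 6 to 8 of 10 (alisertib against control) and 9 to 10 of 10 (both comparisons with bone marrow) over the 10 alternatives, with none called higher. The lowest counts came from scaling to neutrophil surface genes and, for 6 of 10, also from a 3-fold bound. Over all genes, alisertib against control gave 388 calls, but 959 with scaling to neutrophil surface genes, 191 with a filter of 10 CPM, 1257 and 121 with bounds of 1.5-fold and 3-fold, and 1059 with FPKM plus 0.1. Higher calls made up 60.3% of these, but 83.6% when libraries were scaled by total counts, 80.4% by totals that leave out the 100 most abundant genes, 96.8% with neutrophil surface genes, 34.6% with 10 CPM, 49.1% and 78.5% with the bounds of 1.5-fold and 3-fold and 32.4% with FPKM plus 1. Control against bone marrow gave 5371 calls (41.3% of 13019 genes) and alisertib against bone marrow 5344 (41.0%). The 10 CPM filter left 7694 genes, of which 3520 (45.7%) and 3507 (45.6%) were called in these 2 comparisons. A 3-fold bound gave 3350 and 3356 calls, and a 1.5-fold bound 7333 and 7376. Scaling to neutrophil surface genes gave 5873 and 7163. With neutrophil surface genes the higher share of these 2 comparisons was 73.0% and 86.7%, against 44.4% and 45.6%. Total counts moved the median log2 ratio of all genes to 0.27 between the tumour libraries and to -0.38 between control and bone marrow. The members' share of counts (alisertib, control, bone marrow) was 0.326%, 0.690% and 7.29% without Lyz2, and 0.352%, 0.604% and 6.43% without Ngp. When the 100 most abundant genes were left out, apart from the 9 members among them, the share was 0.503%, 1.03% and 10.4%. Depth limited the comparison of Mpo, which had few counts in tumour MDSCs.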

Other observations

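Ngp, Ltf and Camp, which had the largest differences between bone marrow and the alisertib library among the 10 members, lie together on chromosome 9 of GRCm38, from 109847379 (Camp) to 111042767 (Ltf), a span of 1.2 Mb with 31 protein-coding genes. Of the 17 other genes of this span that passed the filter, none was called lower with alisertib than in control and 1 was called higher, Als2cl, at 63 against 17 counts. Over all genes 1.18% were called lower and 1.8% higher, so these calls say little about a span of 17 genes. In control MDSCs against bone marrow neutrophils, 5 of these 17 were called lower and 2 higher, near the shares over all genes (22.9% lower and 18.3% higher), and the 2 were Ptpn23, a phosphatase-like endosomal protein, and Lrrc2. Nbeal2, a gene of this span needed for platelet granules and for granule retention in neutrophils, stood at 126 CPM with alisertib, 175 in control and 939 in bone marrow. Als2cl, Nbeal2, Ptpn23 and Lrrc2 were picked after their values were seen.

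Family members of the granule genes did not share one pattern. Retnla, a resistin-like gene of alternatively activated macrophages, had 6 counts with alisertib, 33 in control and 0 in bone marrow, and was 5.48-fold lower with alisertib (2.42 to 17.1). The metalloproteinase gene Mmp12 of macrophages had 729, 822 and 0 counts and Mmp13 had 157, 161 and 13, neither called between the tumour libraries. Retn, resistin itself, had 87, 86 and 76 counts.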
